A study of Mus musculus with 6 samples.

Results

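The mitochondrial ribosome translates the few proteins that are still encoded in mitochondrial DNA, all of them subunits of the respiratory chain and the ATP synthase. Its RNA comes from the mitochondrial genome, whereas its proteins are encoded in the nucleus, made in the cytosol and imported. A large subunit (Mrpl genes) joins amino acids and a small subunit (Mrps genes) reads the messenger RNA. The genes described here were the protein-coding genes of the deposited expression table whose symbol starts with Mrpl or Mrps followed by a digit, irrespective of their values. They were 77 of the table's 35275 genes, 48 with a large subunit symbol and 29 with a small subunit symbol. Of the 77, 6 lie on chromosome 7 and 3 on chromosome 9, and 68 lie on 15 other chromosomes.

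The cells were ID8-KMF, which were derived by passage in animals from ID8, an ovarian tumour line of C57Bl6/J mice. All 6 carried a knockout of Rgnef (Arhgef28), a guanine nucleotide exchange factor. For 3 libraries the Rgnef-/- cells were used as such, and for the other 3 they re-expressed Rgnef with a GFP tag (GFP-Rgnef) from a lentivirus. Both kinds of cell grew subconfluent on dishes seeded with Matrigel. The lentivirus and the tag came together with Rgnef, and their effects cannot be told apart. The labels name neither the promoter of the construct nor whether a line was a clone, and they do not say that the 3 libraries of a group were separate cultures. The p-values therefore rest on a spread among libraries that may be technical only.

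Levels are in FPKM, fragments per kilobase of transcript scaled to the depth of the library, so they can be compared between genes. Differences are knockout minus GFP-Rgnef on the log2(FPKM + 1) scale. They were tested with limma over the 11500 genes that averaged 0.5 FPKM or more, and a gene was called higher or lower at a Benjamini-Hochberg adjusted p below 0.05. The values implied 15898965 to 17977069 reads per library. Arhgef28 stood at 57.2, 50.9 and 50.02 FPKM in the GFP-Rgnef libraries 1 to 3 and at 0.116, 0.110 and 0.134 FPKM in the knockout libraries, which matches the labels. Of 8 markers of ovarian surface epithelium and mesothelium 7 had a mean of at least 0.5 FPKM, and Krt7 did not. The summed level of the 8 was 1657 to 2464 FPKM with GFP-Rgnef and 1563 to 2487 FPKM without. Of the 8, Krt18 fell (331.6, 341.8 and 285.9 FPKM against 230.4, 213.8 and 229.0 FPKM), and Upk3b, which was not called, had 119.5, 114.7 and 42.6 FPKM against 319.1, 317.8 and 116.3 FPKM. The leukocyte markers summed to 2.18 to 3.49 FPKM with GFP-Rgnef and 2.52 to 3.82 FPKM without, nearly all of it Cd68, and Adgre1 and Cd3e were among those listed at 0. Of the endothelial markers Kdr was listed at 0, and Tek carried nearly all of a sum of 85.9 to 145.9 FPKM over both groups. The 5 smooth muscle and fibroblast markers summed to 47.5 to 71.1 FPKM with GFP-Rgnef and to 34.2 to 44.0 FPKM in the knockout libraries, without overlap. That sum was mostly Dcn, which limma called lower, while Col1a1 stood at 0.989 to 3.02 against 3.61 to 8.92 FPKM. Pdgfra stood at 0.358 to 0.538 against 0.560 to 1.39 FPKM, and neither it nor Col1a1 was called. Krt18, Dcn, Col1a1 and Pdgfra did not overlap between the groups compared below, and the part of these markers in the results was not tested. The libraries numbered 3 stood apart in both groups, which is taken up for the members below.

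Promoter sequence is shown first for 6 members that the results below turn on: Mrpl17, Mrpl3 and Mrps12, which rose in the knockout libraries, and Mrps18a, Mrpl57 and Mrpl28, which fell. The bases are those before the RefSeq start of the gene (GRCm38.p6), 5′ to 3′ on the gene's strand. For Mrps12 only the 170 bases up to the annotated start of its divergent neighbour Sars2, the mitochondrial seryl-tRNA synthetase gene, are shown. Capitals mark matches on either strand to CCGGAAG (ETS factors such as GABPA), AAGATGGCG (YY1) or the NRF1 motif, which is GCGCA, then any base, then GCGC. These are motifs of factors known to act at nuclear genes for mitochondrial proteins.
Mrpl17, chr7:105811088-105811337, minus strand: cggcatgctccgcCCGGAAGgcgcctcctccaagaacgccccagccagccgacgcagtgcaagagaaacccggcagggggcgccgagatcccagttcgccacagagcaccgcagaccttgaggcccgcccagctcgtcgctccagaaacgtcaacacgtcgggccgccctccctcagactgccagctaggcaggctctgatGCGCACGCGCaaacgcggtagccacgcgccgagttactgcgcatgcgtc
Mrpl3, chr9:105053018-105053267, plus strand: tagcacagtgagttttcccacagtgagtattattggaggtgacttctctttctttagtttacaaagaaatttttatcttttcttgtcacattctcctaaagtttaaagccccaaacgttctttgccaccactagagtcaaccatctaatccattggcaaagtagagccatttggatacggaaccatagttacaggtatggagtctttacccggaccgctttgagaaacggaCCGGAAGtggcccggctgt
Mrps12, chr7:28741822-28741991, minus strand: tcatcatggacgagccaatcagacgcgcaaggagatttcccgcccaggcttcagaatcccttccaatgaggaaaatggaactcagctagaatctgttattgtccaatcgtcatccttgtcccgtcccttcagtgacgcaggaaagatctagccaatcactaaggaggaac
Mrps18a, chr17:46110754-46111003, plus strand: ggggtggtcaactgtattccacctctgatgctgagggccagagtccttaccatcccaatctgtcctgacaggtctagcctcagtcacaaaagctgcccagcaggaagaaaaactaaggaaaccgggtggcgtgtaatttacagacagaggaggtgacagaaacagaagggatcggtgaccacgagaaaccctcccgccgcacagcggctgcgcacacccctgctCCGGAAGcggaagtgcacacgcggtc
Mrpl57, chr14:57825989-57826238, plus strand: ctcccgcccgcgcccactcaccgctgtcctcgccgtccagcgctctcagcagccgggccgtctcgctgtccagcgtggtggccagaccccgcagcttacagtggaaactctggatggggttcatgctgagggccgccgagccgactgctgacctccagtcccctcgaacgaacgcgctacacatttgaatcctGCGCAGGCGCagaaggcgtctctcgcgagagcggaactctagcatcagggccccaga
Mrpl28, chr17:26123253-26123502, plus strand: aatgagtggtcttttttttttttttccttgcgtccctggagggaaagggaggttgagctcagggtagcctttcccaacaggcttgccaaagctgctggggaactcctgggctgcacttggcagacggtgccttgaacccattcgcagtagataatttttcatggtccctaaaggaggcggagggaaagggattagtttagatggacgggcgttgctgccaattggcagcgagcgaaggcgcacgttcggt
The table of promoters matched 68 of the 77 members, and the search window for counts was 300 bases, 250 before to 50 after the start. The ETS motif stood in the window of 25 of the 68 members (36.8%), against 9.93% of all 27025 genes in the table and 21.9% of the tested genes. NRF1's motif stood in 13 members (19.1%, against 5.19% of all genes and 12.3% of tested genes) and YY1's in 8 (11.8%, against 1.64% and 4.03%). On chromosomes 7 and 9 the ETS motif stood in 5 of 8 matched members, and elsewhere in 20 of 60. The ETS motif occurred among members that rose and members that fell, and the window of Mrpl28 held none of the 3 motifs. After the start, beyond the printed bases, the windows of Mrps12 and Mrpl57 held the ETS motif and that of Mrps18a the YY1 motif.

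In the knockout libraries 5 of the 76 tested members rose, 6.58% against 8.04% of all tested genes, and 3 fell, 3.95% against 5.34%. The share of members called in either direction was thus no larger than among genes at large. Calls are given apart for chromosomes 7 and 9, set apart from the start, where all tested genes had a median difference of 0.27. On other chromosomes that median was -0.04. On the pair 32.2% of all tested genes rose and 1.03% fell, against 4.53% and 5.96% elsewhere. All 5 members that rose lie on chromosome 7 or 9, and all 3 that fell lie elsewhere. Across members the difference ran from -0.40 to 0.49, with a median of -0.11 against -0.02 for all tested genes, so no member changed as much as 1.5-fold. RNA was measured in bulk, where fewer cells of a type and less RNA per cell cannot be told apart. The calls rest on all 6 libraries: without knockout library 2 none of the 76 members was called by limma, and without GFP-Rgnef library 2, 2 rose and none fell. Calls over all tested genes became fewer too, with 4.2% higher and 1.85% lower without knockout library 2. Without GFP-Rgnef library 2 these shares were 3.98% and 1.72%.

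**Figure D1:**
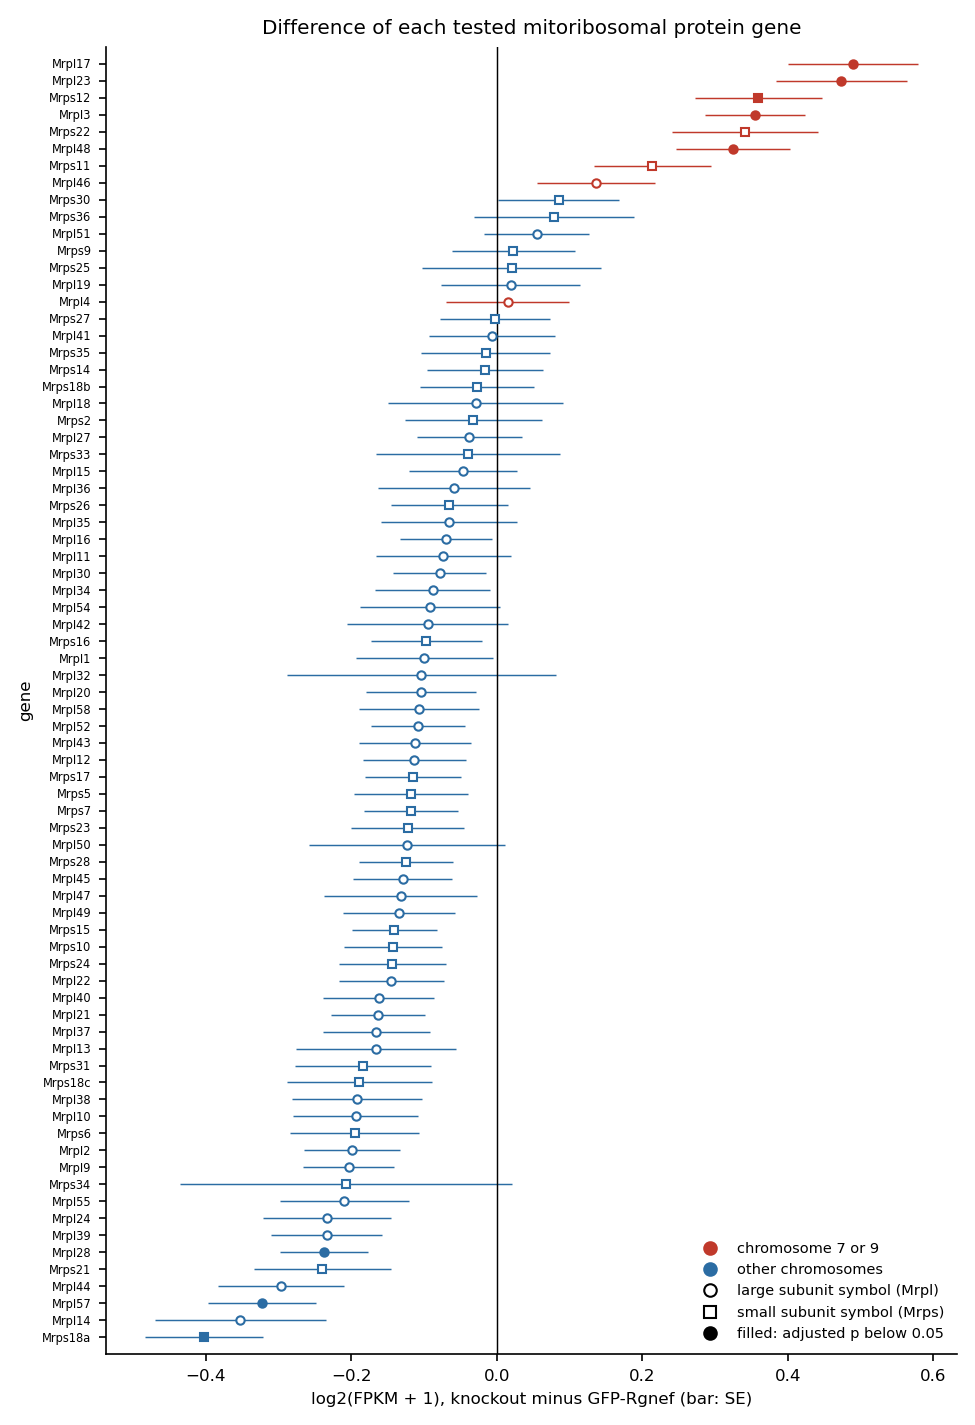
Difference between knockout and GFP-Rgnef libraries for each of the 76 tested mitoribosomal protein genes, on the log2(FPKM + 1) scale with its standard error. Red points are genes on chromosome 7 or 9, blue points genes elsewhere, circles Mrpl and squares Mrps symbols, and filled points have a limma adjusted p below 0.05. The red points take the 8 highest places, and the ninth, Mrpl4, sits near 0.

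The 9 members on chromosomes 7 and 9 had a median difference of 0.34, and all 9 differences were above 0. Of these, 5 rose (55.6%, against 32.2% of all 1458 tested genes on the pair of chromosomes), and 0 fell (against 1.03%). The median of all tested genes there was 0.27. In 8 of the 9 the 3 knockout libraries all lay above the 3 GFP-Rgnef libraries, a share of 88.9% against 58.0% of the tested genes on these chromosomes, and in 0 of the 9 they all lay below (against 1.99%). At an unadjusted p below 0.05, 7 were higher and 0 lower, where 56.7% and 1.85% of the tested genes there were. With only 9 members, these shares are a description.

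Of the members on chromosome 7, Mrpl17 (ENSMUSG00000030879, GRCm38 105803206 to 105811099, minus strand) had the largest difference. It encodes a large subunit protein with a bacterial counterpart. Its level was 43.7, 42.4 and 35.4 FPKM in the GFP-Rgnef libraries 1 to 3 and 56.8, 59.4 and 55.1 FPKM in the knockout libraries. The groups did not overlap, and the GFP-Rgnef library numbered 3 was the lowest of all 6. The mean rose from 40.5 ± 4.45 to 57.1 ± 2.18 FPKM (SD, n = 3), 1.41-fold, with a log2 difference of 0.49 (SE 0.0892, limma adjusted p = 0.0107). Mrpl23 (ENSMUSG00000037772, 142532686 to 142540747, plus strand), whose product sits by the exit of the tunnel through which the new protein leaves, had 27.8, 34.0 and 28.8 FPKM with GFP-Rgnef. In the knockout libraries it had 39.7, 43.0 and 43.9 FPKM, all above the highest GFP-Rgnef library. The difference was 0.47 (SE 0.0901, limma adjusted p = 0.0127). Its pseudogene Mrpl23-ps1, whose reads could be shared with it, stood at most at 0.891 FPKM.

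Mrps12 (ENSMUSG00000045948, 28739641 to 28741820, minus strand), a small subunit protein of the decoding site, had 40.7, 44.4 and 39.4 FPKM with GFP-Rgnef and 49.2, 52.4 and 59.3 FPKM without. Its knockout libraries lay above every GFP-Rgnef library, by a difference of 0.36 (SE 0.0873, limma adjusted p = 0.0312). Mrpl48 (ENSMUSG00000030706, 100545751 to 100608301, minus strand), a large subunit protein found in mitochondria but not in bacteria, had 33.7, 29.8 and 30.7 FPKM with GFP-Rgnef and 37.4, 42.4 and 39.0 FPKM without. The groups did not overlap here either (0.32, SE 0.0786, limma adjusted p = 0.031). Exons of Mrpl48 overlap those of Rab6a on the opposite strand over 708 bases, so part of its reads may not be told apart from those of Rab6a.

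The other members on chromosome 7, Mrps11 and Mrpl46, start within 412 bases of each other on opposite strands, with exons that overlap over 173 bases. Mrps11, a small subunit protein with a bacterial counterpart, had 23.4, 20.05 and 21.3 FPKM with GFP-Rgnef and 24.1, 25.3 and 26.1 FPKM without (0.21, SE 0.0802, limma adjusted p = 0.123). Mrpl46, a large subunit protein, had 24.8, 21.6 and 25.3 FPKM with GFP-Rgnef and 25.4, 27.1 and 26.6 FPKM without (0.14, SE 0.0812, limma adjusted p = 0.32). Neither passed the test, although the knockout libraries of both lay above the GFP-Rgnef libraries, for Mrpl46 by a margin of less than 0.1 FPKM.

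On chromosome 9, Mrpl3 (ENSMUSG00000032563, 105053239 to 105079888, plus strand) was the member that rose. Its product lies near the site where the peptide bond is formed. The gene had 47.4, 46.9 and 45.4 FPKM with GFP-Rgnef and 56.0, 60.5 and 63.3 FPKM without, 46.6 ± 1.06 against 59.9 ± 3.67 (SD, n = 3). The difference was 0.35 (SE 0.0686, limma adjusted p = 0.0136). Mrps22 (ENSMUSG00000032459, 98588730 to 98601660, minus strand), a small subunit protein with no bacterial counterpart, had 13.5, 12.7 and 15.0 FPKM with GFP-Rgnef and 15.7, 18.1 and 19.3 FPKM without. These groups did not overlap, but the gene just missed the threshold (0.34, SE 0.101, limma adjusted p = 0.0605). Mrpl4 (ENSMUSG00000003299, 21002738 to 21008839, plus strand), a large subunit protein of the exit tunnel, had 45.5, 50.8 and 41.8 FPKM with GFP-Rgnef and 48.9, 44.9 and 45.4 FPKM without. Its groups overlapped, with a difference of 0.01 (95% confidence interval -0.18 to 0.21), below the chromosome's median of 0.28.

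**Figure D2:**
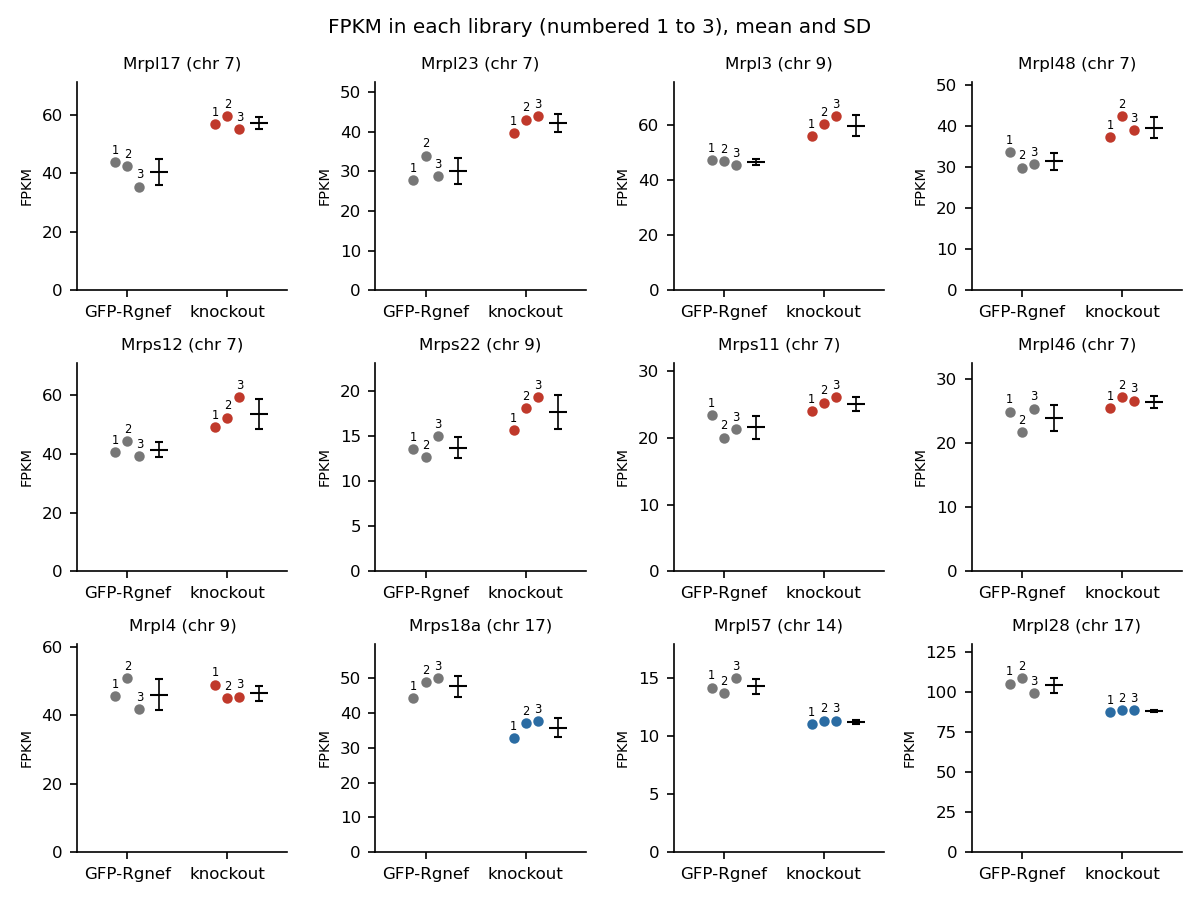
FPKM of the 9 members on chromosomes 7 and 9 and of the 3 members that fell, in each library (points, numbered by library) with the group mean and SD (black). Knockout points lie above every GFP-Rgnef point in the first 8 panels, overlap them for Mrpl4, and lie below them for Mrps18a, Mrpl57 and Mrpl28.

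When each chromosome's median deviation was removed from each library, the differences shrank to 0.24 for Mrpl17, 0.22 for Mrpl23, 0.11 for Mrps12, 0.07 for Mrpl48 and 0.06 for Mrpl3. None of the 5 was then called (limma adjusted p from 0.136 to 0.668), and Mrps11 and Mrpl46 stood at -0.04 and -0.11. Mrps22 and Mrpl4, at 0.05 and -0.28, were not called either, so none of the 9 was called relative to its chromosome. After this step 4.3% of all tested genes rose and 3.37% fell. Together the 9 genes supplied 8.83%, 8.82% and 8.09% of the summed FPKM of all members in the GFP-Rgnef libraries and 11.4%, 11.4% and 11.1% in the knockout libraries. All 3 knockout shares lay above all 3 GFP-Rgnef shares.

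Without knockout library 2, none of the 5 kept its call, with limma adjusted p of 0.054 for Mrpl17, 0.0595 for Mrpl23, 0.0613 for Mrpl3, 0.0916 for Mrps12 and 0.118 for Mrpl48. Mrpl23 also lost it without GFP-Rgnef library 1, Mrpl3 without GFP-Rgnef library 2, and Mrpl48 without GFP-Rgnef library 2 or 3 or knockout library 3. Mrps12 kept its call only without knockout library 1. The number that rose was 3 without GFP-Rgnef library 1, 2 without GFP-Rgnef library 2, 3 without knockout library 3 and 3 without a filter on low values. The share of all tested genes that rose was 8.04% with all libraries. It was 4.56%, 3.98%, 7.34% and 3.69% in these settings, and 4.2% without knockout library 2. The differences themselves stayed above 0 with any 1 library left out, between 0.28 and 0.56 for these 5 genes.

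The 67 tested members on other chromosomes were mostly a little lower in the knockout libraries. Their median difference was -0.12, or 0.923-fold, and 61 of the 67 differences (91.0%) were below 0, against 59.3% of all tested genes on these chromosomes. Yet 0 rose (against 4.53%) and only 3 fell, 4.48% against 5.96%, so the calls are near the background. In 26 of the 67 (38.8%) the knockout libraries all lay below the GFP-Rgnef libraries, against 18.8% of tested genes on these chromosomes, and in 0 they all lay above (against 10.7%). Tested genes there with a mean FPKM within the members' range of 9.31 to 115.4 had a median of -0.04, with 62.5% below 0 and 20.4% not overlapping and lower. At an unadjusted p below 0.05, 13 of the 67 were lower and 0 higher, where 15.2% of tested genes on these chromosomes were lower and 8.88% higher.

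Mrps18a (ENSMUSG00000023967, GRCm38 chromosome 17, 46110986 to 46128910, plus strand) had the largest negative difference. It is a paralog of the bacterial small subunit protein S18, but its product is built into the large subunit. Its level was 44.1, 48.8 and 49.8 FPKM in the GFP-Rgnef libraries and 32.8, 36.9 and 37.6 FPKM in the knockout libraries. The mean fell from 47.6 ± 3.05 to 35.8 ± 2.60 FPKM (SD, n = 3), to 0.752 of its level, with a difference of -0.40 (SE 0.0813, limma adjusted p = 0.0162). It was the member whose call remained after the medians of the chromosomes were removed (-0.33, limma adjusted p = 0.0499), and it lost the call without GFP-Rgnef library 2 (limma adjusted p = 0.0731) or knockout library 2 (0.0518).

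Its 2 paralogs did not pass the test. Mrps18b, also on chromosome 17, had 37.2, 34.1 and 32.7 FPKM with GFP-Rgnef and 32.4, 33.2 and 36.3 FPKM without, with overlapping groups (-0.03, 95% confidence interval -0.21 to 0.15). Mrps18c, on chromosome 5, had 88.2, 87.6 and 107.4 FPKM with GFP-Rgnef and 74.6, 85.9 and 87.0 FPKM without (-0.19, 95% confidence interval -0.42 to 0.04, limma adjusted p = 0.257). The products of both belong to the small subunit. The difference between the paralogs was not tested.

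Mrpl57 (ENSMUSG00000021967, chromosome 14, 57826234 to 57829296, plus strand), a small large-subunit protein found in mitochondria but not in bacteria, had 14.2, 13.7 and 15.0 FPKM with GFP-Rgnef and 11.0, 11.3 and 11.3 FPKM without. The groups did not overlap, with an SD of 0.635 FPKM with GFP-Rgnef and 0.183 FPKM without (-0.32, SE 0.0746, limma adjusted p = 0.0268). Mrpl28 (ENSMUSG00000024181, chromosome 17, 26123500 to 26126613, plus strand), which has a bacterial counterpart, had 105.2, 108.6 and 99.2 FPKM with GFP-Rgnef and 87.4, 88.8 and 88.7 FPKM without (-0.24, SE 0.0607, limma adjusted p = 0.0378). Mrpl57 lost its call without any 1 library other than knockout 3, and Mrpl28 without any 1 other than GFP-Rgnef 3, with limma adjusted p up to 0.0866 and 0.166. Nearest to the threshold among the rest was Mrpl44, a large subunit protein with a ribonuclease III fold, at 26.9, 29.4 and 25.4 FPKM against 20.9, 24.0 and 21.1 FPKM (-0.30, SE 0.0869, limma adjusted p = 0.0593).

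**Figure D3:**
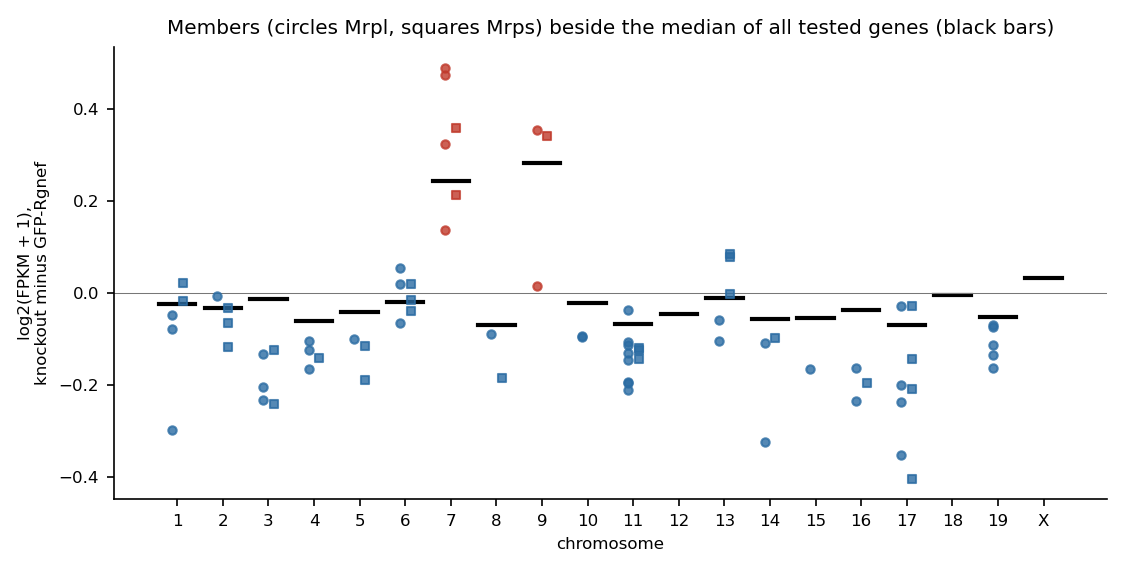
Difference between knockout and GFP-Rgnef libraries of each tested member (circles Mrpl, squares Mrps) by chromosome, with the median of all tested genes of that chromosome as a black bar, on the log2(FPKM + 1) scale. Members and bars are above 0 on chromosomes 7 and 9. On chromosomes 2 to 5, 8, 10, 11, 14 to 17 and 19 all members lie below 0, most of them below the bar.

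By chromosome, the 8 members on chromosome 17 had a median of -0.20 where all tested genes there had -0.07, the 5 on chromosome 3 had -0.20 against -0.01, and the 11 on chromosome 11 had -0.13 against -0.07. On chromosome 16 the 3 members had a median of -0.20 against -0.04. The 6 tested members on chromosome 6 and the 5 on chromosome 13 had medians of 0.00 and -0.00. Chromosomes 12, 18 and X held no member. Mrps30 and Mrps36, both on chromosome 13, are small subunit genes by symbol only. The product of Mrps30 is built into the large subunit, and that of Mrps36 belongs to the 2-oxoglutarate dehydrogenase complex. Mrps30 had 16.7, 18.6 and 17.8 FPKM against 17.4, 20.1 and 19.2 FPKM, and Mrps36 had 47.4, 51.6 and 63.6 FPKM against 52.7, 60.2 and 58.0 FPKM. Their groups overlapped, with differences of 0.09 and 0.08.

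Of 47 tested large subunit members 4 rose (8.51%) and 2 fell (4.26%), with a median of -0.11. Of 29 small subunit members 1 rose (3.45%) and 1 fell (3.45%), with a median of -0.10. Over all tested genes the shares were 8.04% and 5.34%. With Mrps18a and Mrps30 counted in the large subunit and Mrps36 left out, all 3 members that fell were large subunit genes and no small subunit gene fell. That regrouped count turns on Mrps18a alone. Of all tested members 3.95% fell, against 5.34% of all tested genes, so it is a description only. On chromosomes other than 7 and 9 the medians were -0.11 for large and -0.12 for small subunit members, with 39 of 41 and 22 of 26 below 0. The summed FPKM of large subunit members was 1.91, 1.96 and 1.85 times that of small subunit members in the GFP-Rgnef libraries and 1.92, 1.93 and 1.88 times in the knockout libraries. The groups overlapped in that ratio. A difference between subunits was not tested.

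Among the members themselves the mean level ran from 9.31 FPKM (Mrpl35) to 115.4 FPKM (Mrpl18), with medians of 41.9 for the large and 34.3 for the small subunit. Of the 3 most abundant members of each subunit, Mrpl28 fell and the others did not pass the test. Mrpl18, which has a bacterial counterpart, had 108.1, 109.9 and 131.2 FPKM with GFP-Rgnef and 95.9, 118.8 and 128.8 FPKM without (-0.03, 95% confidence interval -0.30 to 0.25). Mrpl42 had 91.5, 95.9 and 113.3 FPKM against 81.4, 97.0 and 103.2 FPKM (-0.09, 95% confidence interval -0.35 to 0.16), and the groups of both genes overlapped. The third large subunit member by level was Mrpl28, described above. The most abundant small subunit genes were Mrps18c, Mrps21 and Mrps17. Mrps21 had 86.7, 84.3 and 102.0 FPKM against 70.1, 77.3 and 83.0 FPKM (-0.24, limma adjusted p = 0.137), and Mrps17 had 76.4, 73.6 and 75.7 FPKM against 64.8, 71.7 and 71.8 FPKM (-0.12, limma adjusted p = 0.302). Both have bacterial counterparts, and the knockout libraries of both lay below all GFP-Rgnef libraries. Mrpl53 was listed at 0 FPKM in all 6 libraries and was not tested. The other 76 had 198 to 1848 reads per library. Exons of 20 members overlap another gene that stands at 10% or more of the member's level, and such reads may not be told apart.

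The libraries numbered 3 stood apart for the members in both groups. In 31 of 76 members (40.8%, against 26.0% of all tested genes) library 3 was the highest of its group in both groups, and in 8 (10.5%, against 22.2%) it was the lowest in both. The clearest cases, chosen after their values were seen, were Mrpl32, a large subunit protein cut to its mature form by a protease of the inner membrane, and Mrps34. Mrpl32 had 38.3, 41.6 and 58.5 FPKM with GFP-Rgnef and 35.3, 39.8 and 53.2 FPKM without. Mrps34 had 15.9, 16.8 and 23.2 FPKM with GFP-Rgnef and 12.8, 13.2 and 23.3 FPKM without, and over 63.4% of its exon length it overlaps Mapk8ip3 on the opposite strand. In both genes library 3 was far above the others of its group, while the groups overlapped. Over the 76 members, the deviation of library 3 from the mean of libraries 1 and 2 in the GFP-Rgnef group correlated with that in the knockout group (Pearson r = 0.658 over genes, 0.552 over all tested genes). These are genes measured in the same libraries and not independent replicates. With only the libraries numbered 1 and 2, 6 members rose and 10 fell, and the median was -0.12. Of all genes tested in those libraries, 11.2% rose and 9.25% fell, also more than the 8.04% and 5.34% with all 6 libraries. The labels do not say what the numbers stand for. Beyond refits with libraries 1 and 2 or with the library number as a block, the part of that number in these results was not tested.

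**Figure D4:**
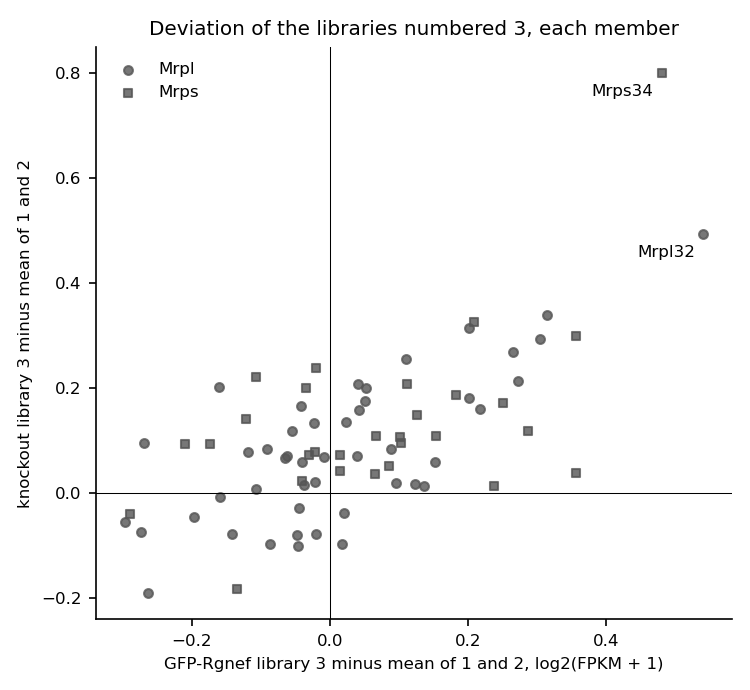
Deviation of the library numbered 3 from the mean of libraries 1 and 2 of the same group, GFP-Rgnef on the horizontal and knockout on the vertical axis, in log2(FPKM + 1), for each of the 76 tested members. Mrpl32 and Mrps34 lie far up and to the right in both groups.

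Summed over members, the level was 3405, 3433 and 3502 FPKM in the GFP-Rgnef libraries and 3091, 3271 and 3416 FPKM in the knockout libraries. The groups overlapped, since knockout library 3 lay above GFP-Rgnef library 1. For the members outside chromosomes 7 and 9 the sums were 3105, 3130 and 3219 FPKM against 2738, 2898 and 3038 FPKM, with no overlap. The 9 on chromosomes 7 and 9 summed to 300.6, 302.6 and 283.2 FPKM against 353.0, 373.0 and 378.0 FPKM. Without knockout library 1 the median over all members was -0.05 in place of -0.11.

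Some of these genes share a start region with a neighbour. Of the 77 members, 33 have another protein-coding gene starting within 1000 bases on the opposite strand. The share among other genes was not counted. Of the 28 distinct pairs with a tested neighbour the neighbour rose in 0 and fell in 2, where 8.04% of all tested genes rose and 5.34% fell. Both lie beside members of chromosome 17. Tmem63b, next to Mrpl14, fell from 54.9 ± 0.917 to 42.5 ± 3.47 FPKM (SD, n = 3; -0.36, SE 0.0755, limma adjusted p = 0.018). Mrpl14 itself had 38.1, 35.1 and 45.4 FPKM against 28.3, 28.7 and 35.2 FPKM (-0.35, SE 0.118, limma adjusted p = 0.0885), and its exons overlap those of Tmem63b over 106 bases. Klc4, a kinesin light chain gene next to Mrpl2, fell from 14.9 ± 2.78 to 7.88 ± 2.46 FPKM (SD, n = 3; -0.87, SE 0.220, limma adjusted p = 0.0368), while Mrpl2, a large subunit protein with a bacterial counterpart, had 97.6, 94.3 and 88.3 FPKM against 81.4, 78.0 and 84.3 FPKM (-0.20, SE 0.066, limma adjusted p = 0.0875). Both neighbours lost their call without GFP-Rgnef library 2 or knockout library 2, Tmem63b also without GFP-Rgnef library 1 and Klc4 without GFP-Rgnef library 3, with limma adjusted p up to 0.0684 and 0.125. On chromosome 7, Sars2 next to Mrps12 had 9.05, 8.56 and 9.46 FPKM against 12.3, 9.78 and 9.32 FPKM, with overlapping groups. Rab6a next to Mrpl48 had 48.5, 46.9 and 68.8 FPKM against 64.3, 68.6 and 82.7 FPKM, also overlapping. Neither passed the test (limma adjusted p = 0.322 and 0.129).

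In the rest of the mitochondrial translation system the share called lay on both sides of the 13.4% of all tested genes. It was 7.41% for assembly factors and 12.5% for translation factors, and 1 of 5 other mitoribosomal proteins was called. These lists are short, so the shares are a description. Of 5 other mitoribosomal proteins 1 fell and 0 rose: Aurkaip1, a small subunit protein, from 69.4 ± 2.00 to 52.2 ± 3.33 FPKM (SD, n = 3; -0.41, SE 0.069, limma adjusted p = 0.00842), a call that held without any 1 library. Dap3, the small subunit protein that binds GTP, had 61.5 ± 1.68 against 59.3 ± 3.13 FPKM (-0.05). Of 27 assembly factors 1 rose, the RNA helicase gene Dhx30 on chromosome 9 (40.4 ± 3.74 to 50.5 ± 2.11 FPKM), and 1 fell, the pseudouridine synthase gene Trub2 (38.9 ± 1.32 to 31.3 ± 3.24 FPKM). Of 16 tested translation factors 1 rose, Mtfmt on chromosome 9, the enzyme that formylates the initiator tRNA, from 11.6 ± 0.426 to 17.6 ± 0.649 FPKM (0.57, SE 0.0741, limma adjusted p = 0.00326). The peptidase gene Metap1d fell from 18.2 ± 1.32 to 13.9 ± 0.754 FPKM. Of 20 mitochondrial aminoacyl-tRNA synthetases and tRNA amidotransferase subunits 2 rose, Nars2 on chromosome 7 (6.07 ± 0.453 to 9.74 ± 0.467 FPKM) and Lars2 on chromosome 9 (5.83 ± 0.308 to 7.72 ± 0.586 FPKM), and Tars2 fell (21.8 ± 0.777 to 16.6 ± 1.35 FPKM). The genes that rose in these lists, as among the members, lie on chromosome 7 or 9.

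Of these calls, Dhx30 and Lars2 were lost without any 1 library, Trub2 without any 1 other than knockout 3, Metap1d without any 1 other than GFP-Rgnef 2 or knockout 3, and Tars2 without GFP-Rgnef 1, GFP-Rgnef 2 or knockout 2, with limma adjusted p up to 0.115, 0.112, 0.162, 0.1 and 0.0921. Nars2 and Mtfmt kept theirs throughout. Of 21 factors of mitochondrial DNA and its transcription, limma called 0, voom on recovered reads called 0, and 1 was higher and 1 lower at an unadjusted p below 0.05. Among all tested genes limma called 13.4%. The most abundant were Pprc1, a coactivator (121.4 ± 12.7 against 108.5 ± 12.6 FPKM), and the receptor gene Esrra (80.1 ± 3.68 against 81.2 ± 7.63 FPKM). Of the 12 mitochondrially encoded transcripts tested, which the mitochondrial ribosome translates, limma called 0 and 1 was at an unadjusted p below 0.05 and 1 called by voom on recovered reads. That one was mt-Co1, with 3117 ± 203 against 2387 ± 370 FPKM (SD, n = 3; limma adjusted p = 0.0571), and it was called without knockout library 1 (0.0435). mt-Nd1 had 2373 ± 189 against 2096 ± 160 FPKM (limma adjusted p = 0.198). Mean levels of the 12 ran from 1.13 to 2752 FPKM, with mt-Co3, mt-Atp6 and mt-Atp8 at 1.13, 5.43 and 7.49 FPKM. The cause of these low values was not tested.

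Other lists are given with the background on the same chromosomes, where 32.2% of tested genes rose on chromosomes 7 and 9 and 5.96% fell elsewhere. Of 77 nuclear respiratory chain subunits 3 rose, all on chromosomes 7 and 9, and 11 fell, all elsewhere, with a median of -0.17 outside chromosomes 7 and 9 and 66 of 68 below 0. These were 33.3% of the list's genes on chromosomes 7 and 9 and 16.2% of those elsewhere. Among those that fell were the ATP synthase genes Atp5g2, from 444.9 ± 13.9 to 338.5 ± 23.6 FPKM, and Atp5o. Ndufb7 of complex I and Uqcrq of complex III fell too. Of 82 tested cytosolic ribosomal proteins 8 rose, all on chromosomes 7 and 9, among them Rpsa, Rps3 and Rps15a. Another 4 fell, led by Rpl35 (174.7 ± 11.8 to 126.4 ± 12.3 FPKM), with a median of -0.13 elsewhere and 58 of 61 below 0. These were 38.1% of the list's genes on chromosomes 7 and 9 and 6.56% of those elsewhere. Of 29 tested import and chaperone genes 1 rose and 2 fell, and 0 of the 5 on chromosomes 7 and 9 were called, of which 3 were higher at an unadjusted p below 0.05. The one that rose was Timm8a1 on chromosome X (28.9 ± 0.193 to 46.6 ± 3.57 FPKM, difference 0.67, SE 0.074, limma adjusted p = 0.00174). Those that fell were the protease gene Lonp1 (64.9 ± 0.600 to 43.6 ± 2.97 FPKM, difference -0.57, SE 0.0698, limma adjusted p = 0.00274) and the chaperone gene Trap1. A difference between these lists and the mitoribosomal proteins was not tested.

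Leaving out GFP-Rgnef 1 or knockout 2 gave 0 respiratory chain genes higher and 2 lower, GFP-Rgnef 2 gave 0 and 1, and knockout 1 gave 1 and 2. Leaving out GFP-Rgnef 3 gave 2 and 10, and knockout 3 gave 0 and 11. Shares of all tested genes, higher and lower, were 4.56% and 2.68% without GFP-Rgnef 1 and 3.98% and 1.72% without GFP-Rgnef 2. They were 7.38% and 4.61% without GFP-Rgnef 3 and 5.13% and 3.31% without knockout 1. Without knockout 2 they were 4.2% and 1.85%, and without knockout 3 they were 7.34% and 5.06%. Of the genes named, Ndufb7 lost its call without GFP-Rgnef 2, and Atp5o, Uqcrq and Trap1 lost theirs without any 1 of the libraries numbered 1 and 2. For the cytosolic ribosomal proteins, leaving out GFP-Rgnef 1 gave 1 higher and 1 lower, GFP-Rgnef 2 or knockout 2 gave 0 and 1, knockout 1 gave 9 and 1, and knockout 3 gave 5 and 4. Rpsa, Rps3 and Rps15a lost their call without GFP-Rgnef 1, GFP-Rgnef 2 or knockout 2, while Rpl35, Atp5g2, Timm8a1 and Lonp1 kept theirs without any 1 library. Exons of Rpl35, Dhx30 and Trub2 overlap those of Arpc5l, Smarcc1 and Coq4, so their values are uncertain.

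**Figure D5:**
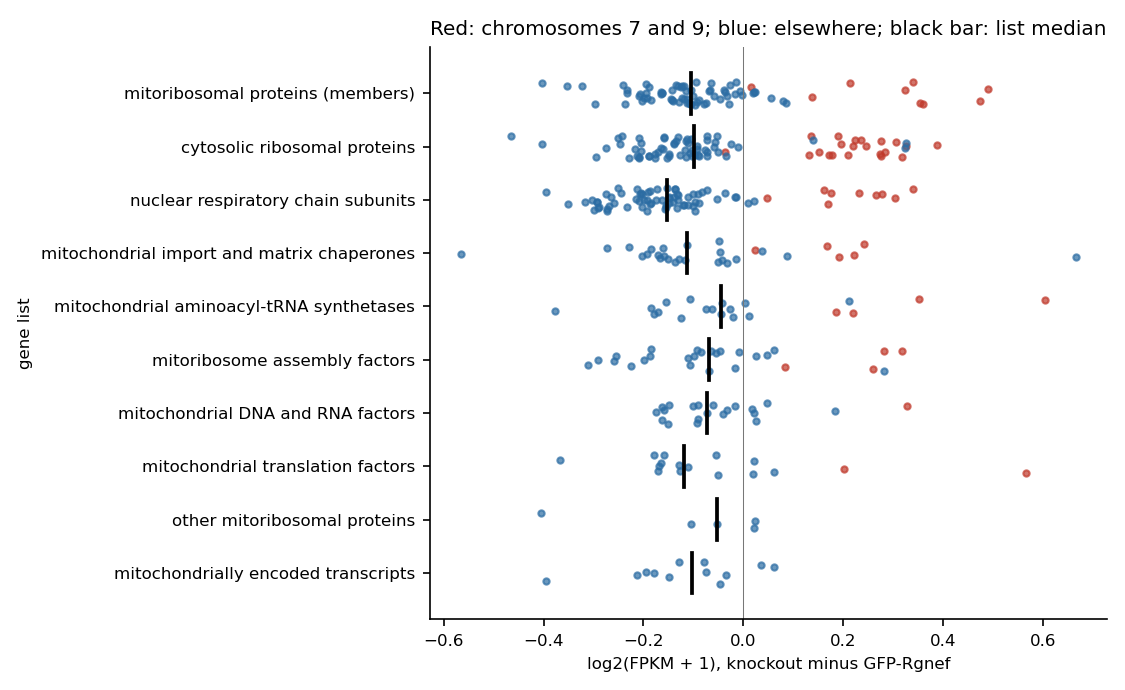
Difference between knockout and GFP-Rgnef libraries, on the log2(FPKM + 1) scale, of each tested gene of the mitoribosomal proteins and 9 other lists, with genes on chromosomes 7 and 9 in red and the list median as a black bar. In each list that holds both kinds of gene most red points lie to the right of most blue points, and the list medians run from -0.15 to -0.04.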

How the data were processed

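Poly-T selected RNA of 6 libraries was sequenced. FPKM values were deposited by the authors in a single table of 35275 Ensembl identifiers, whose sample columns were all used (0 left out). The submitters' processing notes name CASAVA 1.8, TopHat2 2.0.9, DESeq2 and mm10. The sources used here do not give which tool made the values, the gene annotation or the use of strand. GENCODE mouse release M 21 (GRCm38) supplied symbols and positions for 34490 identifiers. Promoters came from RefSeq (GRCm38.p6).

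The 11500 genes averaging 0.5 FPKM or more were tested on log2(FPKM + 1) by limma (version 3.58.1, with its trend option, under R 4.3.3), and the fit was tested on simulated data. There it recovered 22% of genes changed 1.25-fold, 80% of those changed 1.5-fold, 92% at 2-fold and 100% at 4-fold. Most changes of 1.25-fold were thus missed in the simulation, which used a dispersion of 0.005 for all genes. It changed 200 of the 11500 genes, whereas limma called 13.4% in the data, so recovery in the data may differ. Tables were made with pandas 2.3.3 under Python 3.11.15 and plots with matplotlib 3.10.9. Whole reads, within 0.02, were recovered from the FPKM values for voom and for depth. Exon overlap counts genes at 10% or more of the member's level.

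Members, lists and the pair of chromosomes 7 and 9 were chosen with earlier results of these data known. Named members are those called, the 3 most abundant of each subunit, all on chromosomes 7 and 9, those at 0, and the Mrps18, Mrps30 and Mrps36 genes. From each other list up to 4 called genes follow, filled up to 2 with the most abundant. Mrpl2, Mrpl14, Mrpl32, Mrpl35, Mrpl44, Mrps34 and the neighbours Klc4, Rab6a, Sars2 and Tmem63b were added after their values were seen. Alternatives covered the pseudocount, filter, scaling, variance model, replicate block, recovered reads, chromosome centring, exon overlap and left-out libraries.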

Additional observations from a re-analysis of the deposited data

How the results depend on the processing

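With 1 library left out, the number of members that rose lay between 0 and 6 and the number that fell between 0 and 3, with 0 to 4 and 0 to 2 for the large subunit, 0 to 2 and 0 to 1 for the small subunit, 0 to 6 rising on chromosomes 7 and 9, 0 to 3 falling elsewhere, and a median of -0.141 to -0.0531. After chromosome centring 0 members rose and 1 fell (large subunit 0 and 0, small subunit 0 higher, chromosomes 7 and 9 0 higher, elsewhere 1 lower) and the median was -0.0555. Without a filter 3 rose, all on chromosomes 7 and 9, and 0 of the small subunit. Without limma's trend 0 small subunit genes rose and 1 large subunit gene fell. With TPM scaling 2 small subunit genes rose and 1 large subunit gene fell, and 1 large subunit gene fell by voom. With only the libraries numbered 1 and 2, 10 members fell, all outside chromosomes 7 and 9 (7 large, 3 small), and 2 small subunit genes rose. In the main fit, counted by structure, 0 small subunit genes fell, which does not hold for the libraries numbered 1 and 2 alone. Pseudocounts of 0.1 and 0.5, a mean FPKM of at least 5, median-ratio scaling, limma's robust option and leaving out members with exon overlap kept these counts within 1.5 times. Among all tested genes 8.04% rose and 5.34% fell in the main fit. These shares were 4.3% and 3.37% after centring, 3.69% and 2.0% without a filter, and 7.43% and 4.37% without trend. They were 8.45% and 4.1% with TPM scaling, 8.66% and 4.99% by voom, and 11.2% and 9.25% with libraries 1 and 2. With 1 library left out they lay between 3.98% and 7.38% higher and between 1.72% and 5.06% lower.

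The replicate number as a block gave 8 members that fell, all outside chromosomes 7 and 9 (6 large, 2 small), and 6 that rose (2 small). Correlations of same-numbered libraries' deviations were 0.321, -0.02 and 0.552 for numbers 1 to 3. Not every library correlated best with its own number, as GFP-Rgnef 2 stood at 0.399 with knockout 1. GFP-Rgnef 3 stood at -0.523 and -0.2 with knockout 1 and 2, so the libraries numbered 3 went together. With 3 libraries per group, whose deviations depend on each other, this check cannot decide whether the numbers pair the libraries. Over all genes the block gave 1517 higher and 1253 lower, against 925 and 614.

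Some named genes changed sign, of which Rpsa was called. After chromosome centring this held for Mrpl18 (0.0451), Mrpl46 (-0.11), Mrps11 (-0.0375), Mrpl4 (-0.28), Rpsa (-0.00798), Mrps18b (0.0467) and Sars2 (-0.0645), and with only the libraries numbered 1 and 2 for Mrpl4 (-0.0352) and Esrra (-0.0886). With 1 library left out Mrpl18 ranged from -0.118 to 0.0928, Mrpl4 from -0.0505 to 0.0865, Mrps18b from -0.0744 to 0.0245, Esrra from -0.0532 to 0.0786, Mrpl42 from -0.166 to 0.00385, Mrps36 from -0.0107 to 0.197 and Mrpl32 from -0.269 to 0.0763. The cause was not tested. The tested members had at least 198 reads in each library.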
